A study of Homo sapiens with 12 samples.

Results

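The symbols of 10 imprinted growth genes were looked up in the expression files of a human cardiomyocyte differentiation: DLK1, MEG3, IGF2, H19, PEG10, PEG3, MEST, SNRPN, GRB10 and PLAGL1. Of these 10 symbols, 8 were among the 17096 genes listed in all 12 libraries, and MEG3 and PEG3 were not analysed here. The members were chosen by symbol, and with earlier results of these data known. The cells were H7, an established human embryonic stem cell line, driven toward cardiomyocytes and profiled by RNA sequencing. The 6 groups of 2 libraries were wild-type cells and cells whose genotype label is E2A-/- at day 3 (labelled cardiac mesoderm) and at days 7 and 15 (labelled cardiomyocytes). All groups share the H7 background, and how many clones stand behind each genotype is not given in the labels. Nothing in the labels says that the 2 libraries of a group came from separate cultures, so the p-values measure the spread between these libraries, which may be technical.

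Genomic imprinting is the expression of a gene mainly from the maternal or the paternal chromosome, set by DNA methylation laid down in the egg or sperm. Many imprinted genes act on fetal and placental growth, those expressed from the paternal copy more often promoting it and those from the maternal copy more often restraining it. They tend to be high in embryonic tissue and to be silenced after birth, and several lie in clusters that share a control region. The expression values here do not separate the parental copies.

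The E proteins encoded by E2A, the gene now named TCF3, bind E-boxes, whose letters are CANNTG and whose preferred forms for E proteins include CAGGTG and CAGCTG. RefSeq windows of 300 bases (250 before and 50 after an annotated start, build GRCh38.p14) were at hand for 5 of the 8 genes, 20 windows in all. No window was at hand for DLK1, IGF2 or PEG10, so the counts do not cover them. CAGGTG or its reverse complement CACCTG was in 3 of the 20 windows (15%), against 20.6% of all 35116 windows of that length. CAGCTG, which reads the same on both strands, was in 2 of the 20 (10%, against 17.9%), and CANNTG, which contains the other 2, was in 14 (70%, against 68.7%). The 250 bases before the start are printed for the 3 windows with CAGGTG or CACCTG, 5′ to 3′ on the strand of the gene, with each CANNTG in capitals. They belong to H19 at chr11:2001267-2001516 (minus strand, CACCTG 180 bases before the start), to GRB10 at chr7:50732354-50732603 (minus strand, CAGGTG 18 bases before) and to SNRPN at chr15:24956050-24956299 (plus strand, CAGGTG 115 bases before). The GRB10 window is 1 of 5 of that gene and belongs to an internal start. The GRB10 window nearest the 5′ end of the gene (chr7:50793404-50793703) held no CANNTG. The SNRPN window is 1 of 4 SNRPN windows.
H19: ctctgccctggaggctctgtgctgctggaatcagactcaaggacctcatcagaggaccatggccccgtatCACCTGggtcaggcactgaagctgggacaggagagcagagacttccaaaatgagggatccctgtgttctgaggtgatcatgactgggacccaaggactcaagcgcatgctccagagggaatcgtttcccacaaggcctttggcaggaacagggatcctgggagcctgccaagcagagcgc
GRB10: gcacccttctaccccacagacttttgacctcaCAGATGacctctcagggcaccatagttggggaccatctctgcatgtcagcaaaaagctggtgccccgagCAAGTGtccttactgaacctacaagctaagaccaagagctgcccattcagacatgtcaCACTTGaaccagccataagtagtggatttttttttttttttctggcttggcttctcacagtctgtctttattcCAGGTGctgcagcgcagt
SNRPN: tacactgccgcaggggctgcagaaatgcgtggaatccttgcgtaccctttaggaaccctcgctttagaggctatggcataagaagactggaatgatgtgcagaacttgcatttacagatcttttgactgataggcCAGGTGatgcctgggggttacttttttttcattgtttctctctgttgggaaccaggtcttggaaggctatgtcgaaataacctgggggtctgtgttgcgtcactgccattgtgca
These letters describe the windows and say nothing of whether an E protein bound there.

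H19, a non-coding RNA, is also the host of a microRNA that lies inside an H19 exon. Its RefSeq mature arms are given because the level of H19 is the level of their precursor's host, and neither arm was measured here. The seed (bases 2 to 8 from the 5′ end) is in capitals.
hsa-miR-675-5p: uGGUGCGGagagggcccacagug
hsa-miR-675-3p: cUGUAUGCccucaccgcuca

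The label was checked on TCF3 first. TCF3 mRNA was 179.5 and 149 FPKM (fragments per kilobase of transcript, scaled to the depth of the library) in the wild-type libraries of day 3 against 146 and 148 in those labelled knockout, 135 and 138 against 179.9 and 172 at day 7, and 74.4 and 98.2 against 169.7 and 108 at day 15. The labelled knockout libraries were both below the wild-type ones at day 3, by a difference that did not pass (log2 change -0.15 ± 0.19 SE, adjusted p = 0.618), and both above them at days 7 and 15. The day 7 difference did not pass either (0.36 ± 0.19, adjusted p = 0.158), and TCF3 was called higher at day 15 (0.66 ± 0.19, adjusted p = 0.0234). Gene totals do not show a small deletion, so the groups are called labelled knockout throughout.

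Every change is a difference of log2(FPKM + 1) from a model of all 12 libraries, called where the p-value adjusted over the 16295 genes tested was under 0.05. All 8 listed genes passed the filter on low values, which asked for at least 1 FPKM in 2 libraries. Between the genotypes, 4 of the 8 were called at day 3 (2 higher and 2 lower), where 23.6% of all genes were called, 9.51% higher and 14.1% lower. At day 7, 6 were called (2 higher, 4 lower, against 42.0% of all genes, 22.1% higher and 19.9% lower), and at day 15, 5 were called (3 higher, 2 lower, against 35.1%, 18.9% higher and 16.2% lower). Their median change without regard to sign was 0.61, 0.76 and 1.10 at the 3 days, against 0.32, 0.45 and 0.40 over all genes tested. The scale understates the change of low genes, and the genes tested were not matched to the 8 by level.

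**Figure D1:**
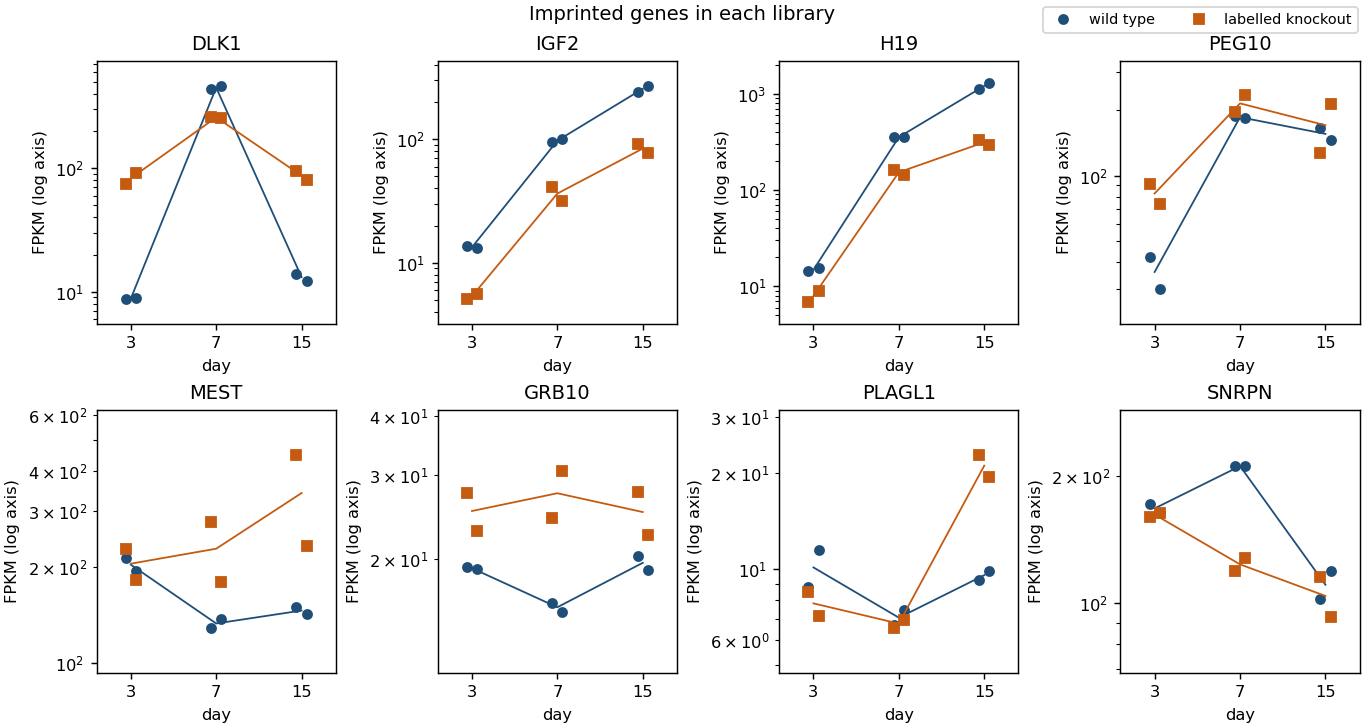
FPKM on a log axis (its range differs between panels) against day of differentiation for the 8 imprinted genes, 1 point per library with lines through the group means. DLK1 peaked at day 7 in both genotypes with its wild-type libraries outside the labelled knockout ones on every day, and IGF2 and H19 rose through day 15 with the labelled knockout libraries below.

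DLK1 encodes a transmembrane protein with the repeats of a NOTCH ligand but not the part by which such ligands activate their receptor, and it is a marker of progenitors that restrains fat cell differentiation. Its gene lies on chromosome 14 (GRCh38 chr14:100725705-100738224, plus strand) and is expressed from the paternal copy. In wild type at day 3 DLK1 stood at 8.73 and 8.84 FPKM, against 74.2 and 91.7 under the knockout label. At day 7 it was at 435 and 466 in wild type and at 261 and 257 in the labelled knockout. At day 15 it was at 14.04 and 12.19 in wild type and at 94.3 and 79.9 in the labelled knockout. The groups did not overlap on any day, and the order of the genotypes at day 7 was opposite to that at days 3 and 15.

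DLK1 thus rose 51.3-fold in wild type from day 3 to day 7 (5.53 ± 0.13 SE, adjusted p = 9.517e-10), becoming on average number 186.5 of 17096 genes by level. It then fell 34.4-fold to day 15 (-5.00 ± 0.13, adjusted p = 9.49e-09). In the labelled knockout the same steps were 3.12-fold up (1.64 ± 0.13, adjusted p = 9.138e-06) and 2.97-fold down (-1.56 ± 0.13, adjusted p = 2.494e-05). The peak was therefore lower, and the levels on both sides of it higher, than in wild type.

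Between the genotypes DLK1 was 9.44-fold higher in the labelled knockout at day 3 (3.09 ± 0.13, adjusted p = 1.204e-06). It was 1.74-fold lower at day 7 (-0.80 ± 0.13, adjusted p = 8.479e-04) and 6.64-fold higher at day 15 (2.64 ± 0.13, adjusted p = 1.051e-06). The change of the genotype difference was itself past the threshold in both steps, at -3.89 ± 0.19 from day 3 to day 7 (adjusted p = 2.479e-06) and 3.44 ± 0.19 from day 7 to day 15 (adjusted p = 3.437e-06). In order of level the groups were wild type day 3, wild type day 15, labelled knockout day 3, labelled knockout day 15, labelled knockout day 7 and wild type day 7. Of these neighbours, the ranges of the 2 libraries overlapped between labelled knockout day 3 and labelled knockout day 15.

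**Figure D2:**
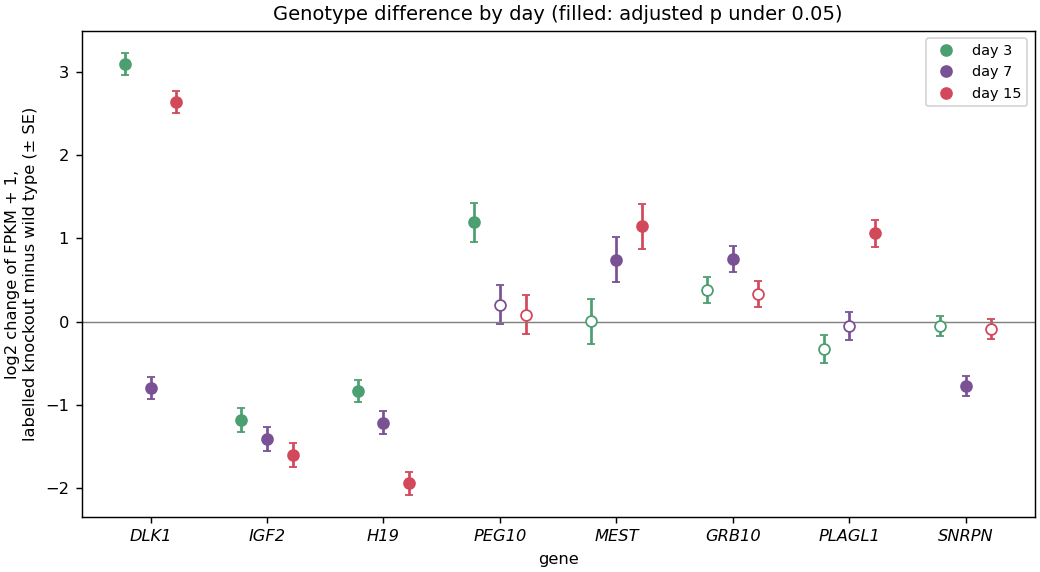
Log2 change of FPKM + 1, labelled knockout minus wild type, for each imprinted gene at days 3, 7 and 15, with the standard error of the fit from 2 libraries a group as bars and filled points where the adjusted p was under 0.05. DLK1 is at 3.09, -0.80 and 2.64, IGF2 and H19 are below 0 on all 3 days, and MEST and PLAGL1 are highest at day 15.

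In a bulk sample, fewer cells of a type and less RNA per cell cannot be told apart, and the levels of cell type markers differed between the genotypes. The summed FPKM of 6 cardiomyocyte markers (TNNT2, MYH6, MYL7, ACTN2, NKX2-5, TTN) was 6070 and 6068 in wild type against 1170 and 1016 at day 7, and 8589 and 9473 against 3649 and 2958 at day 15. At day 3 it was 6.62 and 7.96 against 6.13 and 5.77, with TNNT2, MYH6, ACTN2 and TTN each under 1 FPKM in wild type and MYH6 and NKX2-5 in the labelled knockout, so cardiomyocyte genes were near 0 in the libraries labelled cardiac mesoderm. The 3 pluripotency markers listed of 4 (POU5F1, DPPA4, TDGF1) summed to 1443 and 1447 FPKM in wild type and 1192 and 1164 in the labelled knockout at day 3. Of these, TDGF1 was lower in the labelled knockout (-1.08), DPPA4 was higher (0.49) and POU5F1 was not called (-0.29). The mesoderm label itself was not checked by markers. Among the cardiomyocyte markers, MYH6 was called higher in the labelled knockout at day 15 (0.38, adjusted p = 0.03919). The NKX2-5 change was 0.07 (adjusted p = 0.792) on that day, while TNNT2, MYL7, ACTN2 and TTN were lower.

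At day 3, with DLK1 higher in the labelled knockout, 3 neural markers listed of 5 (SOX2, TUBB3, NES) summed to 471 and 465 FPKM against 356 and 347 in wild type, and SOX1 and PAX6 were not analysed here. Of these, SOX2 was higher on all 3 days (2.15, 2.82 and 2.46), NES was higher at day 3 (0.35) and TUBB3 was lower at day 3 (-0.50). At day 7, with DLK1 lower in the labelled knockout, the neural sum was again higher there, at 379 and 373 against 256 and 259. At day 15 the sum was 222 and 214 against 197 and 219.8, with overlapping groups. The sums of the 2 stromal markers listed of 6 (COL1A1, PDGFRA) were lower at day 3 (28.8 and 26.6 against 49.3 and 50.3). They were also lower at day 7 (353 and 278 against 468 and 444), when COL1A1 was lower (-0.62) and PDGFRA was not called (-0.11). The sums overlapped at day 15 (168 and 124 against 126 and 146), when PDGFRA was called higher (0.66, adjusted p = 0.01092) and COL1A1 was not (0.01). The 5 endothelial markers (CDH5, PECAM1, KDR, TIE1, EGFL7) summed to 91.1 and 88.0 in wild type against 92.8 and 89.5 at day 3, 150.4 and 141 against 84.5 and 76.0 at day 7, and 84.2 and 85.6 against 95.3 and 81.1 at day 15. At day 7 all 5 were lower in the labelled knockout, and at day 15 CDH5 (1.25), PECAM1 (1.07) and EGFL7 (0.77) were higher, KDR was lower (-0.45) and TIE1 was not called (1.12, adjusted p = 0.07063). CDH5, PECAM1 and TIE1 also rose to day 7 and fell to day 15 in wild type, as DLK1 did. There, EGFL7 was not called over the first step (0.15) and KDR not over the second (-0.11). In the labelled knockout CDH5 rose from day 7 to day 15 (1.18), where DLK1 fell. PECAM1, TIE1, EGFL7 and KDR were not called over that step (0.90, 0.71, -0.12 and 0.01). The part of these cell types in the DLK1 result was not tested.

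The genes whose course was most like that of DLK1 over the 12 libraries, by Pearson r among 10107 genes with a group mean of at least 10 FPKM, were BICD1 (r = 0.975), FIGNL2 (0.959), NUP210 (0.959), SAPCD2 (0.956) and DNMBP (0.955). These r values describe 12 libraries that share 6 groups. BICD1, an adaptor of dynein-driven transport, had group means of 13.4, 35.6 and 16.0 FPKM in wild type over days 3, 7 and 15, against 25.6, 34.7 and 26.6 in the labelled knockout. SAPCD2 had 3.17, 15.2 and 3.72 FPKM in wild type against 6.09, 11.7 and 5.96. Both were thus highest at day 7 and higher in the labelled knockout at days 3 and 15, as DLK1 was, over a narrower range. They were picked for that likeness. At day 7, when DLK1 was lower in the labelled knockout, FIGNL2 had means of 28.7 FPKM in wild type against 30.2. NUP210 had 19.8 against 22.9 and DNMBP 24.5 against 22.2. Ranked by Spearman's rho, 1 of these 5 genes (SAPCD2) stayed among the first 5. Among the other 7 imprinted genes, DLK1 had its highest r with PEG10 (0.660) and an r of 0.045 with IGF2.

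DLK1 is thought to act against NOTCH signalling, so NOTCH receptors, ligands and targets are given beside it. Of the 13 tested, 1 was higher and 3 were lower in the labelled knockout at day 3, 7 were higher and 2 lower at day 7, and 8 were higher and 0 lower at day 15 (limma; 1 was lower at an unadjusted p under 0.05). On days 3, 7 and 15, 9.51%, 22.1% and 18.9% of all genes were higher and 14.1%, 19.9% and 16.2% lower. The list's median change was -0.23, 0.52 and 0.64, against -0.01, 0.06 and 0.03 over all genes. The ligand gene DLL1 was at 30.4 and 39.5 FPKM in wild type and 17.3 and 18.5 in the labelled knockout at day 3, at 8.40 and 11.7 against 59.7 and 53.0 at day 7, and at 1.28 and 0.664 against 18.8 and 9.07 at day 15. It was lower at day 3 and higher at days 7 and 15, whereas DLK1 was higher, lower and higher.

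The ligand gene JAG1 was higher in the labelled knockout than in wild type at day 7 (1.59, adjusted p = 2.561e-05) and day 15 (1.69, adjusted p = 2.549e-05). The receptor genes NOTCH1, NOTCH2, NOTCH3 and NOTCH4 were all higher at day 7 (0.75 to 1.25) and at day 15 (0.63 to 1.69). DLL3, a ligand-like inhibitor of the pathway, was lower at day 3 (-2.26, adjusted p = 5.292e-05). The target HES1 was higher at day 3 (0.74) and lower at day 7 (-0.69), and the target HEY1 was lower at day 3 (-0.83) and higher at day 15 (1.80). The count lower at day 3 was 1 without either wild-type library or without labelled knockout replicate 2 of that day, and the count lower at day 7 was 1 without wild-type replicate 2. The count higher at day 3 was 3 when libraries were scaled to their sum over genes not encoded by mitochondria.

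IGF2 is a fetal growth factor made from the paternal chromosome, and H19 is a non-coding RNA made from the maternal one. The pair lies on chromosome 11 (IGF2 at chr11:2129112-2149603, H19 at chr11:1995176-2001470, both on the minus strand), where both draw on shared enhancers and a methylated control region decides which of them is used. IGF2 was at 13.6 and 13.1 FPKM in wild type and 5.08 and 5.61 in the labelled knockout at day 3, at 95.3 and 99.7 against 41.0 and 31.7 at day 7, and at 242 and 272 against 91.4 and 76.9 at day 15. H19 was at 14.3 and 15.4 FPKM against 6.90 and 8.98 at day 3, at 355 and 355 against 163 and 143 at day 7, and at 1123 and 1299 against 332 and 296 at day 15. Every labelled knockout library was below every wild-type library of its day for both genes.

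Both genes rose at each step in both genotypes. IGF2 rose 7.31-fold from day 3 to day 7 and 2.63-fold to day 15 in wild type, and 6.80-fold and 2.31-fold in the labelled knockout. H19 rose 23.98-fold and 3.41-fold in wild type, reaching place 42 of 17096 genes by mean rank at day 15, and 19.3-fold and 2.05-fold in the labelled knockout. In both genes, labelled knockout day 15 was below wild type day 7, at means of 84.1 and 97.5 FPKM for IGF2 and 314 and 355 for H19, with no overlap of the libraries.

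IGF2 was 2.49-fold lower in the labelled knockout at day 3 (-1.18 ± 0.14, adjusted p = 3.344e-04), 2.68-fold lower at day 7 (-1.41 ± 0.14, adjusted p = 4.366e-05) and 3.05-fold lower at day 15 (-1.60 ± 0.14, adjusted p = 3.005e-05). The difference of these changes between neighbouring days did not pass the threshold (-0.23 ± 0.20, adjusted p = 0.449, and -0.19 ± 0.20, adjusted p = 0.496). H19 was 1.87-fold lower at day 3 (-0.83 ± 0.13, adjusted p = 0.001765), 2.32-fold lower at day 7 (-1.21 ± 0.13, adjusted p = 7.99e-05) and 3.86-fold lower at day 15 (-1.94 ± 0.13, adjusted p = 6.869e-06). The H19 difference grew from day 7 to day 15 by 0.73 on the log2 scale (-0.73 ± 0.19, adjusted p = 0.01504). That call was lost without wild-type day 15 replicate 2 (-0.62, adjusted p = 0.0600) and without labelled knockout day 7 replicate 1 (-0.64, adjusted p = 0.0524), and the change from day 3 to day 7 did not pass (-0.38 ± 0.19, adjusted p = 0.188).

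The ratio of H19 to IGF2 in FPKM, which is per length, is given as a description. It was 1.05 and 1.17 in wild type at day 3 and 1.36 and 1.60 in the labelled knockout. At day 7 it was 3.73 and 3.56 against 3.98 and 4.51, and at day 15 it was 4.64 and 4.78 against 3.64 and 3.85. H19 thus moved from near IGF2 at day 3 to more than 3 times its level at days 7 and 15, and the ratio was higher in the labelled knockout at days 3 and 7 and lower at day 15.

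**Figure D3:**
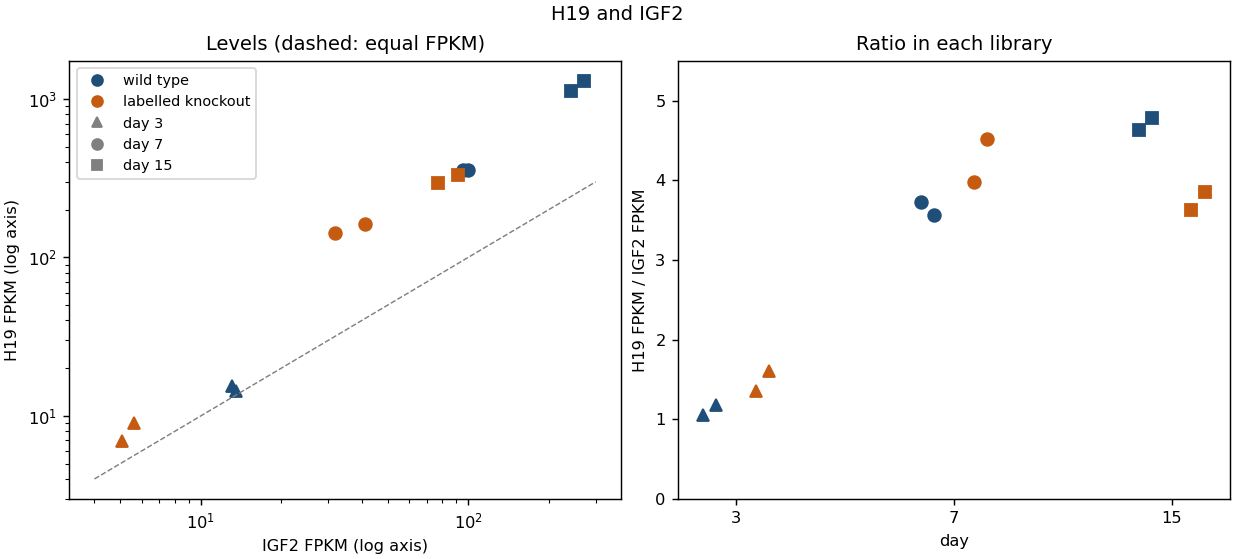
Left, H19 against IGF2 FPKM in the 12 libraries on log axes, with a dashed line where they are equal. Right, the ratio of H19 to IGF2 FPKM in each library by day, which runs from 1.05 in wild type at day 3 to 4.78 in wild type at day 15 and is 3.64 and 3.85 in the labelled knockout at day 15.

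Over the 12 libraries IGF2 and H19 had an r of 0.986 with each other. Outside the set, IGF2 was most like MYL9 (r = 0.993), PACS1 (0.988) and TAGLN (0.988), of which MYL9 and TAGLN encode proteins of the smooth muscle contractile apparatus. TAGLN had group means of 29.7, 362 and 1163 FPKM in wild type and 16.4, 76.2 and 213 in the labelled knockout. H19 was most like RBM20 (0.992), a splicing regulator of titin, ACTA1 (0.990), skeletal actin, and TBX2 (0.990), a transcription factor of the atrioventricular canal. RBM20 had group means of 1.10, 24.2 and 43.5 FPKM in wild type and 0.457, 9.49 and 15.2 in the labelled knockout.

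The sums of some cell type markers were lower in the labelled knockout, as IGF2 and H19 were, though not in every member. The cardiomyocyte sum given above was lower in the labelled knockout at days 7 and 15, though not in every member. That of 4 smooth muscle markers (ACTA2, TAGLN, CNN1, MYH11) was 42.6 and 40.6 FPKM in wild type against 26.3 and 24.9 at day 3, 959 and 989.6 against 158 and 141 at day 7, and 1784 and 1944 against 427 and 355 at day 15. A large part of this sum is TAGLN (1163 FPKM on average in wild type at day 15), named above because its course was like that of IGF2. The likeness of the sum to IGF2 is therefore partly fixed by that choice. ACTA2 and TAGLN were lower on all 3 days. CNN1 was lower at days 7 and 15 and not called at day 3 (-0.16). MYH11 was lower at day 15 and not called at days 3 and 7 (0.18 and 0.13). ACTA2 was not called from day 7 to day 15 in wild type (-0.10). The 4 endoderm markers listed of 7 (FOXA2, SOX17, APOA1, APOA2) summed to 135 and 137 against 32.6 and 36.3 at day 3, 142 and 153 against 41.3 and 40.8 at day 7, and 248 and 262 against 49.3 and 53.3 at day 15. AFP, TTR and HNF4A, further endoderm markers, were not analysed here. FOXA2 was lower at days 3 and 7 (-2.30 and -1.70) and not called at day 15 (-0.18). SOX17 was lower at days 3 and 15 (-1.68 and -0.59) and not called at day 7 (-0.30). APOA1 was lower at days 7 and 15 (-1.84 and -2.48) and not called at day 3 (-0.33). APOA2 was lower on all 3 days. In wild type SOX17 fell from day 3 to day 7 (-3.65) and FOXA2 from day 7 to day 15 (-3.32). IGF2 and H19 rose over these steps. The 4 trophoblast markers listed of 6 (GATA3, KRT7, TFAP2A, HAND1) summed to 61.1 and 57.8 against 27.1 and 28.4 at day 3, 254 and 272 against 78.1 and 68.7 at day 7, and 284 and 282 against 110.1 and 81.2 at day 15. HAND1, which is also a cardiac gene, was lower on all 3 days (-1.19, -2.64 and -1.28), KRT7 was lower at days 7 and 15 (-1.93 and -4.16), GATA3 was lower at days 3 and 7 (-0.95 and -1.28), and TFAP2A was higher at day 15 (1.26). The cardiomyocyte sums of day 3 were near 0 in both genotypes. The part of these cell types in the lower IGF2 and H19 was not tested.

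Around IGF2, the IGF axis list holds its receptors, the adaptor proteins behind them, the binding proteins that hold it outside the cell and the proteins that bind its mRNA. Of the 16 tested, 6 were higher and 2 lower in the labelled knockout at day 3, 8 were higher and 4 lower at day 7, and 11 were higher and 1 lower at day 15. Among all genes, 9.51%, 22.1% and 18.9% were higher on days 3, 7 and 15, and 14.1%, 19.9% and 16.2% lower. The list's median change was 0.20, 0.60 and 0.53, against -0.01, 0.06 and 0.03 over all genes. The count higher at day 15 was 6 without wild-type replicate 1 or without labelled knockout replicate 1 of that day.

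IGF1R, the receptor through which IGF2 signals, was at 20.7 and 22.9 FPKM in wild type and 132 and 61.6 in the labelled knockout at day 15 (adjusted p = 7.428e-04), with no overlap but a wide spread between the labelled knockout libraries. At day 3 its change was -0.01 (adjusted p = 0.990). IRS4, an adaptor behind the receptor, was higher at day 7 (1.62, adjusted p = 6.848e-05) and day 15 (1.87, adjusted p = 4.486e-05). IGF2R, which clears IGF2 and is itself imprinted in the mouse, was higher at day 7 (0.56, adjusted p = 0.01245).

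The binding proteins moved in both directions. IGFBP5 was at 0.815 and 0.926 FPKM in wild type and 14.98 and 14.60 in the labelled knockout at day 3 (3.08, adjusted p = 1.204e-06). IGFBP7 was at 91.7 and 94.4 against 5.986 and 5.496 at day 7 (-3.80, adjusted p = 2.544e-07), and its day 15 change was -0.16 (adjusted p = 0.487). IGFBP4 was lower at days 3 and 7 (-1.24 and -1.30) and higher at day 15 (0.50). IGFBP3 was higher at day 3 (0.93) and lower at days 7 and 15 (-1.86 and -1.33).

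The let-7 and oncofetal list holds LIN28A and LIN28B, which block the maturation of let-7 microRNAs, HMGA1 and HMGA2, chromatin proteins of embryonic cells, and the mRNA-binding IGF2BP1 and IGF2BP3. Its genes were higher in the labelled knockout where they were called. Of the 6 tested, 4, 4 and 5 were higher at days 3, 7 and 15 and 0 were lower on each day, also at an unadjusted p under 0.05 (limma). Of all genes, 9.51%, 22.1% and 18.9% were higher and 14.1%, 19.9% and 16.2% lower. The median change was 0.53, 0.76 and 1.23, against -0.01, 0.06 and 0.03 over all genes. LIN28A was at 824 and 799 FPKM in wild type and 1177 and 1117 in the labelled knockout at day 3, and at 60.7 and 64.3 against 366 and 333 at day 15 (2.46, adjusted p = 2.762e-07). LIN28B was higher on all 3 days (0.79, 0.92 and 1.25), as were IGF2BP1 (0.56, 0.82 and 1.20) and IGF2BP3 (0.66, 0.69 and 0.56), which bind IGF2 mRNA among others and are also in the IGF axis list. IGF2 itself was lower on each of these days.

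**Figure D4:**
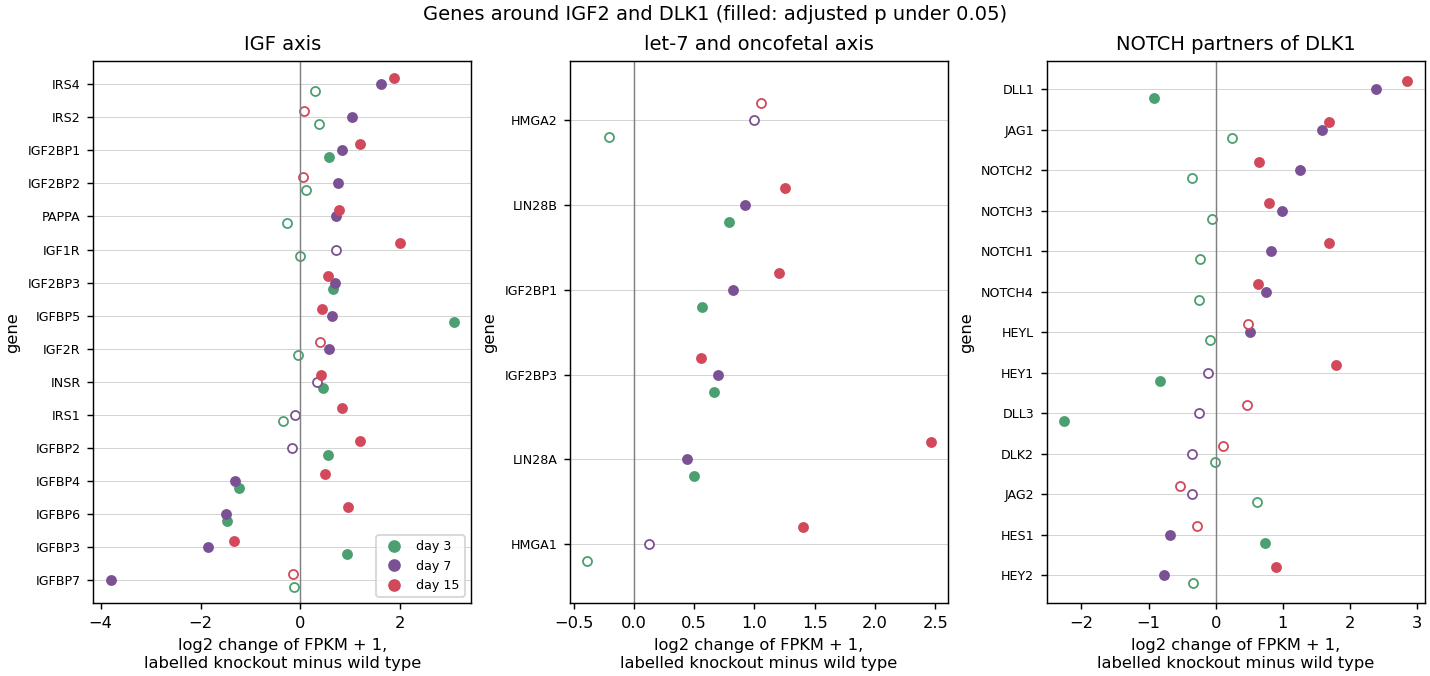
Log2 change of FPKM + 1, labelled knockout minus wild type, for the tested genes of the IGF axis, the let-7 and oncofetal list and the NOTCH partners of DLK1, 1 point per day, filled where the adjusted p was under 0.05. At day 15, 11 of 16, 5 of 6 and 8 of 13 genes are filled to the right of 0.

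PEG10, a gene derived from a retrotransposon and needed for the placenta, is expressed from the paternal copy on chromosome 7 (chr7:94656325-94669695, plus strand). It was at 41.9 and 29.9 FPKM in wild type and 91.5 and 73.7 in the labelled knockout at day 3, at 187 and 184 against 196 and 234 at day 7, and at 165 and 146 against 127 and 214 at day 15. The libraries of the genotypes did not overlap at days 3 and 7 and overlapped at day 15. PEG10 was 2.30-fold higher in the labelled knockout at day 3 (1.19 ± 0.23, adjusted p = 0.004789), with changes of 0.21 ± 0.23 at day 7 (adjusted p = 0.508) and 0.09 ± 0.23 at day 15 (adjusted p = 0.801) that did not pass. It rose from day 3 to day 7 in both genotypes, 5.18-fold in wild type (2.36 ± 0.23, adjusted p = 1.912e-05) and 2.60-fold in the labelled knockout (1.37 ± 0.23, adjusted p = 0.001511). The difference between these rises was just short of the threshold (-0.99 ± 0.33, adjusted p = 0.0579) and passed without wild-type day 3 replicate 1 (-1.22, adjusted p = 0.0482) and when the model held the 8 libraries of days 3 and 7 (-0.99, adjusted p = 0.0234). SGCE, its imprinted neighbour, which starts close by on the opposite strand and shares 219 exonic bases with it, was not called between the genotypes on any day (0.04, -0.13 and 0.42).

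MEST, an enzyme of the hydrolase fold used as a marker of mesoderm and of fetal growth, is expressed from the paternal copy at another place on chromosome 7 (chr7:130486171-130506465, plus strand). It was at 213 and 194 FPKM in wild type and 227 and 182 in the labelled knockout at day 3, at 129 and 137 against 277 and 179.8 at day 7, and at 149.8 and 142 against 449 and 234 at day 15. The groups overlapped at day 3 and not at days 7 and 15, and at the later days labelled knockout replicate 1 was well above replicate 2.

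MEST was 2.34-fold higher at day 15 (1.15 ± 0.27, adjusted p = 0.008146). Without labelled knockout replicate 1 this was 0.68 (adjusted p = 0.0462) and without replicate 2 it was 1.62. At day 7 it was 1.72-fold higher (0.74 ± 0.27, adjusted p = 0.04748), a call at the edge: it was lost without wild-type replicate 1 (0.70, adjusted p = 0.162), wild-type replicate 2 (0.79, adjusted p = 0.121) or labelled knockout replicate 1 (0.43, adjusted p = 0.302), after rescaling by median ratios (0.65, adjusted p = 0.0564) and without the trend option (0.74, adjusted p = 0.0651). At day 3 the change was 0.00 ± 0.27 (adjusted p = 0.995). No step in time was called for MEST in either genotype. Fitting the 4 wild-type libraries of days 3 and 7 alone called its wild-type step (-0.61, adjusted p = 0.001646), and leaving out labelled knockout day 15 replicate 2 called the step from day 7 in that genotype (1.01, adjusted p = 0.01247).

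GRB10 is an adaptor that binds the insulin and IGF1 receptors and dampens their signal. In human it is expressed from both copies in many tissues and from the paternal one in brain. Its gene lies at chr7:50590063-50793462 on the minus strand. GRB10 was at 19.20 and 19.003 FPKM in wild type and 27.6 and 22.9 in the labelled knockout at day 3, at 16.1 and 15.5 against 24.4 and 30.6 at day 7, and at 20.24 and 18.98 against 27.7 and 22.5 at day 15. Every labelled knockout library was above every wild-type library of all 3 days. The difference was called at day 7 (1.74-fold, 0.75 ± 0.15, adjusted p = 0.003017). At days 3 and 15 it did not pass (0.38 ± 0.15, adjusted p = 0.102, and 0.33 ± 0.15, adjusted p = 0.115), although scaling to the sum over genes not encoded by mitochondria brought day 3 past the threshold (0.55, adjusted p = 0.0256).

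PLAGL1, a zinc-finger transcription factor that regulates other imprinted genes, IGF2 and H19 among them in the mouse, is expressed from the paternal copy on chromosome 6 (chr6:143940300-144064599, minus strand). It was at 8.81 and 11.5 FPKM in wild type and 8.51 and 7.11 in the labelled knockout at day 3, at 6.67 and 7.42 against 6.55 and 6.95 at day 7, and at 9.27 and 9.88 against 22.8 and 19.5 at day 15. The 2 labelled knockout libraries of day 15 stood above the other 10. PLAGL1 was 2.21-fold higher in them than in wild type (1.06 ± 0.17, adjusted p = 8.431e-04), with changes of -0.33 and -0.05 at days 3 and 7 that did not pass (adjusted p = 0.178 and 0.821).

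In the labelled knockout PLAGL1 rose 3.13-fold from day 7 to day 15 (1.51 ± 0.17, adjusted p = 1.291e-04), and the corresponding wild-type step was 0.40 ± 0.17 (adjusted p = 0.0674). The difference of the genotype effect between these days was 1.11 ± 0.24 (adjusted p = 0.005442). From day 3 to day 7 PLAGL1 fell in wild type (-0.46 ± 0.17, adjusted p = 0.0449), a call lost without wild-type day 3 replicate 2 (-0.29, adjusted p = 0.298) and without either wild-type day 7 library (adjusted p = 0.197 and 0.0930). It was also lost after scaling to the sum over genes not encoded by mitochondria (0.0673) and in a fit of those 4 libraries alone (0.0590). The genes most like PLAGL1 over the libraries were ETV1 (r = 0.947), FZD6 (0.930) and TXNDC15 (0.894).

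SNRPN encodes a splicing protein of the brain and is expressed from the paternal copy in the Prader-Willi region of chromosome 15 (chr15:24823637-24978723, plus strand). It was at 172 and 163 FPKM in wild type and 160.5 and 164 in the labelled knockout at day 3, at 212 and 211 against 119.5 and 128 at day 7, and at 102 and 119 against 115 and 92.8 at day 15. The genotypes were apart at day 7 and overlapped at days 3 and 15. SNRPN was 1.71-fold lower in the labelled knockout at day 7 (-0.77 ± 0.12, adjusted p = 6.687e-04), with changes of -0.05 and -0.09 at days 3 and 15 (adjusted p = 0.821 and 0.587).

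The SNRPN difference changed from day 3 to day 7 (-0.72 ± 0.17, adjusted p = 0.01485) and from day 7 to day 15 (0.68 ± 0.17, adjusted p = 0.01287). The first call was lost without wild-type day 3 replicate 2 (adjusted p = 0.0576), wild-type day 7 replicate 1 (0.0536) or 2 (0.0529), or labelled knockout day 7 replicate 1 (0.0502). The second was lost without wild-type day 15 replicate 1 (adjusted p = 0.0518). SNRPN rose from day 3 to day 7 in wild type (0.33 ± 0.12, adjusted p = 0.0463) and fell in the labelled knockout (-0.39 ± 0.12, adjusted p = 0.0343). Each of these 2 calls was lost when any of the 4 libraries of its step was left out, with adjusted p from 0.106 to 0.193 in wild type and from 0.0728 to 0.149 in the labelled knockout. Both were also lost without the trend option (0.0910 and 0.0709), and the second after scaling to the sum over genes not encoded by mitochondria (0.0640). From day 7 to day 15 SNRPN fell 1.91-fold in wild type (-0.93 ± 0.12, adjusted p = 1.287e-04).

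SNURF, the upstream reading frame of the same transcripts, shares 814 exonic bases with SNRPN, 23.8% of those of SNRPN, on the same strand, and its listed values moved differently. It was at 12.8 and 8.42 FPKM in wild type and 23.1 and 29.2 in the labelled knockout at day 3, at 3.77 and 2.38 against 11.2 and 11.6 at day 7, and at 31.4 and 35.4 against 10.9 and 74.0 at day 15. None of the 3 genotype differences passed (1.24, 1.63 and -0.20, adjusted p = 0.174, 0.0554 and 0.821). How reads in the shared exons were divided between the names was not given in the sources used here. The levels of both are uncertain. SNHG14, the long non-coding transcript that continues downstream and shares 141 exonic bases with SNRPN, was higher in the labelled knockout at day 3 (0.90, adjusted p = 6.8e-04) and lower at day 15 (-0.44, adjusted p = 0.01875). IGF2 likewise shares 1460 exonic bases (20.9%) with the INS-IGF2 read-through gene on its strand, which was not analysed here, and MEST shares 228 with COPG2 on the opposite strand.

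Genes next to the imprinted ones, the nearest 2 on each side among the listed genes that do not overlap the gene they flank, numbered 29 tested. IGF2-AS, counted beside H19, shares 333 exonic bases with IGF2. NDN, MAGEL2, DIO3 and PPP1R9A are counted again below among the other imprinted genes. Of the 29, 4 were higher and 6 lower in the labelled knockout at day 3, 8 were higher and 8 lower at day 7, and 2 were higher and 7 lower at day 15. Of all genes, 23.6%, 42.0% and 35.1% were called. Near IGF2 and H19, CD81, which encodes a tetraspanin of the cell surface, was lower on all 3 days, with means of 286 FPKM in wild type and 178 in the labelled knockout at day 3, 320.2 against 158 at day 7 and 205 against 138 at day 15 (-0.70, -1.02 and -0.58, adjusted p = 0.01112, 7.069e-04 and 0.01791). MRPL23, on the other side of H19, was lower at day 15 (-0.66, adjusted p = 0.008277) with changes of -0.28 and -0.09 at days 3 and 7.

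In the chromosome 14 cluster of DLK1, DIO3, which encodes the enzyme that inactivates thyroid hormone and is imprinted like DLK1, was at means of 2.66, 6.22 and 2.68 FPKM in wild type over the 3 days and 1.13, 2.95 and 1.51 in the labelled knockout. Its difference passed at day 7 (-0.88, adjusted p = 0.01914) and just missed at day 3 (-0.78, adjusted p = 0.0505). DIO3 thus had a peak at day 7 in both genotypes, as DLK1 did, and was not higher in the labelled knockout at days 3 and 15, when DLK1 was. BEGAIN, on the other side of DLK1, was under 1 FPKM in the wild-type means of all 3 days, and in the labelled knockout it was at 2.46 FPKM at day 7 and 2.66 at day 15. Near SNRPN, PWAR5, a non-coding RNA, was higher on all 3 days (0.55, 0.37 and 0.87, adjusted p = 0.01646, 0.04896 and 8.852e-04), and NDN, a maternally silenced growth suppressor of neurons, was lower at days 3 and 7 (-0.78 and -0.92).

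Of 39 genes in a list of other imprinted genes drawn up for comparison, 29 were listed and tested. Whether each is imprinted in human, or in these cells, was not checked. IGF2R, given above as imprinted in the mouse, is among them and is also in the IGF axis list. At day 3, 5 were higher and 3 lower in the labelled knockout. At day 7, 6 were higher and 8 lower, and at day 15, 4 were higher and 4 lower. These 8, 14 and 8 calls of 29 stand beside 23.6%, 42.0% and 35.1% of all genes called, and are not far from those shares. Their medians were 0.08, -0.12 and 0.13, against -0.01, 0.06 and 0.03 over all genes. These counts are sensitive to single libraries. At day 3 the count higher was 3 without wild-type replicate 1, wild-type replicate 2 or labelled knockout replicate 1. At day 7 the count higher was 3 without wild-type replicate 2, and the count lower was 4 without either wild-type library or labelled knockout replicate 2. At day 15 the count lower was 1 without wild-type replicate 1 and 2 without wild-type replicate 2.

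CDKN1C, a maternally expressed inhibitor of the cell cycle that restrains fetal growth, was at 11.3 and 11.7 FPKM in wild type and 32.6 and 35.9 in the labelled knockout at day 3, at 122 and 128 against 30.3 and 33.2 at day 7, and at 50.2 and 61.2 against 52.9 and 42.7 at day 15. It was higher at day 3 (1.49, adjusted p = 7.453e-05), lower at day 7 (-1.94, adjusted p = 6.02e-06) and overlapping at day 15 (-0.22, adjusted p = 0.247). Its wild-type libraries, like those of DLK1, were highest at day 7. PHLDA2, a maternally expressed gene of the same cluster that restrains placental growth, was lower at day 3 (-1.71, adjusted p = 0.001406) and higher at day 7 (1.07, adjusted p = 0.008705). These directions were opposite to those of CDKN1C, but PHLDA2 was a low gene. It was at 7.63 and 8.09 FPKM in wild type against 1.23 and 2.27 in the labelled knockout at day 3. At day 7 it was near the floor, at 1.08 and 0.55 against 2.45 and 3.13.

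L3MBTL1, a chromatin reader, was at 12.6 and 10.1 FPKM in wild type and 51.7 and 41.1 in the labelled knockout at day 7 (1.94, adjusted p = 2.474e-05). DLX5, a homeobox factor, was higher at day 15 (1.72, adjusted p = 3.336e-04), and so was ZDBF2 (0.99, adjusted p = 0.001854). SLC22A18, beside CDKN1C in the genome, was lower at day 15 (-0.98, adjusted p = 0.006746).

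**Figure D5:**
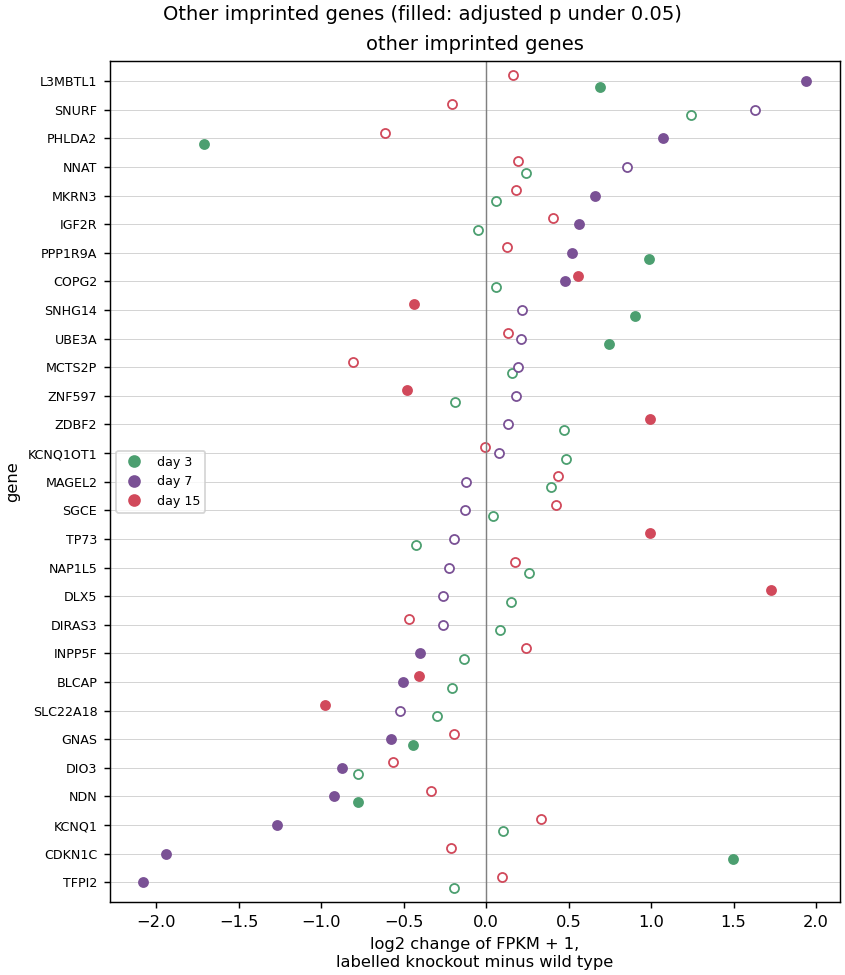
Log2 change of FPKM + 1, labelled knockout minus wild type, for the 29 tested genes of the list of other imprinted genes, 1 point per day, filled where the adjusted p was under 0.05. Filled points lie on both sides of 0 on each day (5 and 3, 6 and 8, 4 and 4), and CDKN1C and PHLDA2 change side between days 3 and 7.

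Imprints are kept through cell division by the DNA methylation machinery and by zinc-finger proteins that guard the control regions. The list of imprint maintenance and DNA methylation also holds TET1, TET2 and TET3, enzymes that act in the removal of methylation, and CTCFL. Its counts therefore mix opposed functions. Of its 13 genes tested, 4 were higher in the labelled knockout at day 3, 8 at day 7 and 7 at day 15. On each day 0 were lower, also at an unadjusted p under 0.05 (limma). Of all genes, 9.51%, 22.1% and 18.9% were higher and 14.1%, 19.9% and 16.2% lower. The median change was 0.28, 0.45 and 0.57, against -0.01, 0.06 and 0.03 over all genes. ZNF445, a zinc-finger protein that guards imprints, was higher on all 3 days (0.68, 1.01 and 1.10, adjusted p = 0.0255, 0.001892 and 0.001456). ZFP57, another such protein, was under 1 FPKM in every library and was not tested. Its means were 0.546 FPKM in wild type against 0.279 in the labelled knockout at day 3, 0.635 against 0.423 at day 7 and 0.495 against 0.144 at day 15, without overlap on any day.

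DNMT3B, which lays down new methylation, was at 33.4 and 29.9 FPKM in wild type and 90.1 and 76.1 in the labelled knockout at day 7 (1.36, adjusted p = 3.89e-04). DNMT1, which copies methylation at replication, was higher at day 7 (1.63, adjusted p = 0.00209). TET1, an enzyme that starts the removal of methylation, was at 3.72 and 2.95 FPKM against 11.8 and 13.0 at day 15 (1.63, adjusted p = 3.005e-05), and was higher at day 3 (0.74). CTCFL, a relative of the insulator protein CTCF normally found in the germ line, was higher at day 3 (1.22, adjusted p = 0.001488). The count higher at day 3 was 1 or 2 when any library of that day was left out, with 1 without labelled knockout replicate 1. At day 7 the count was 5 without wild-type replicate 2, and at day 15 it was 3 without wild-type replicate 1 or labelled knockout replicate 1, while 1 gene was lower without labelled knockout replicate 2.

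Over time, 6 of the 8 imprinted genes were called from day 3 to day 7 in wild type (5 higher, 1 lower, against 43.7% of all genes, 21.1% higher and 22.6% lower) and 5 in the labelled knockout (4 higher, 1 lower, against 28.6%, 17.3% higher and 11.4% lower). From day 7 to day 15, 4 were called in wild type (2 higher, 2 lower, against 52.3%, 25.5% higher and 26.8% lower) and 4 in the labelled knockout (3 higher, 1 lower, against 28.4%, 13.3% higher and 15.1% lower). DLK1, IGF2, H19 and PEG10 were the 4 that rose from day 3 to day 7 in both genotypes. The genotype difference itself changed for 2 genes between days 3 and 7, with 0 more positive (also at an unadjusted p under 0.05 with limma) and 2 more negative, against 20.2% of all genes, 11.3% more positive and 8.90% more negative. Between days 7 and 15 it changed for 4, with 3 more positive and 1 more negative, against 31.7%, 16.6% more positive and 15.2% more negative.

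The range over the 6 group means set 3 genes apart from the others. It was 153-fold in H19, 51.3-fold in DLK1 and 48.1-fold in IGF2, followed by 5.997-fold in PEG10, 3.13-fold in PLAGL1, 2.57-fold in MEST, 2.03-fold in SNRPN and 1.74-fold in GRB10. H19 and IGF2 were lowest in labelled knockout day 3 and highest in wild type day 15, whereas DLK1 was lowest in wild type day 3 and highest in wild type day 7.

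Libraries summed to 577716 to 734958 FPKM, and the replicates of a group correlated at r = 0.970 to 0.989 over all genes, with the widest spread in labelled knockout day 15. The share of FPKM on genes encoded by mitochondria was 16.9% and 15.7% in wild type against 18.8% and 17.4% in the labelled knockout at day 3, 8.55% and 8.14% against 20.2% and 18.5% at day 7, and 26.1% and 26.2% against 13.9% and 14.3% at day 15. It thus differed between the genotypes in opposite directions at days 7 and 15. Scaling to the other genes moved the median change of all genes from -0.01 to 0.12 at day 3 and from 0.06 to 0.22 at day 7, and the share of calls that were higher from 40.3% to 62.3% and from 52.6% to 68.2%. At day 15 that share moved from 53.8% to 54.6%. DLK1 was then at 3.25, -0.59 and 2.65, IGF2 at -1.01, -1.21 and -1.60, and H19 at -0.67, -1.01 and -1.94 at days 3, 7 and 15, all still called.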

How the data were processed

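The 12 libraries of RNA from H7 cells (6 groups of 2) each have 1 deposited table of FPKM per gene symbol. That the authors' deposited values are FPKM was inferred from the values, since the labels do not name the unit. The genome was hg38 (GRCh38) and a tool named is BWA, per the submitters' processing notes. The quantifier, the annotation and the strand setting were not given in the sources used here. Overlapping, antisense and near-identical genes are therefore uncertain.

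A gene was kept if 2 or more libraries reached 1 FPKM (16295 of 17096, 801 left out). Values were taken as log2(FPKM + 1) with a pseudocount of 1. The trend option of limma 3.58.1 (R 4.3.3) was used to fit 6 group means (6 residual degrees of freedom) and 9 two-sided contrasts. Adjusted p-values are Benjamini-Hochberg values across the genes tested, called under 0.05. The fit was tested on simulated data. A fold change on this scale understates the change of low genes, while folds in the text are ratios of mean FPKM. Standard errors are those of the fit.

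Depth was estimated from the steps of low values in 863 genes with 1 transcript, at 6800000 to 11600000 fragments per library. From 56.4% to 70.6% of those values came within 0.1 of a whole number, so no counts were rebuilt and no interval was drawn.

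The imprinted genes, the 5 gene lists and the marker lists were chosen with earlier results of these data known, so none is independent support. Named from each list are up to 4 called genes with the smallest adjusted p per genotype contrast, and a few more to complete a family (chosen after their values were seen). Named as most alike are 5 genes for DLK1 and 3 for others. Neighbours are the nearest 2 listed genes on each side that do not overlap the gene. Gene places and overlaps are those of GENCODE 29 on GRCh38 (1-based), and sequences are from RefSeq. Alternatives were the pseudocount, the filter, 2 rescalings, limma without its trend, a fit of the compared groups alone, the replicate number as a term and leaving out each library.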

Additional observations from a re-analysis of the deposited data

Results flagged for a closer look

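In 6 cases, for 4 of the genes, the difference between the genotypes was itself different between neighbouring days, by the test of that difference (limma, adjusted over all genes tested). Each value is the log2 change of labelled knockout against wild type on the later day minus that on the earlier day, over 2 libraries a group. DLK1 gave -3.89 from day 3 to day 7 and 3.44 from day 7 to day 15, the genotype order being reversed at day 7. SNRPN gave -0.72 and 0.68 over the same steps, the genotype difference being called at day 7 and not at days 3 and 15. H19 gave -0.73 from day 7 to day 15, the gap below wild type widening while H19 rose in both genotypes. This H19 call and those of SNRPN were lost without some single libraries, as given above. PLAGL1 gave 1.11 from day 7 to day 15, with a higher level in the labelled knockout at day 15.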

How the results depend on the processing

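The 8 imprinted genes gave 504 combinations of a called change and an alternative setting. In 474 the call and direction were kept and in 30 the call was lost, each of the latter in MEST, SNRPN, PLAGL1 or the H19 change from day 7 to day 15. No called change turned its direction. Changes that were not called passed under a setting 12 times, in GRB10, MEST, PEG10, PLAGL1 and SNRPN. Over the alternatives, the genotype change of DLK1 ran from 2.94 to 3.25 at day 3, from -0.89 to -0.59 at day 7 and from 2.52 to 2.76 at day 15. That of IGF2 ran from -1.30 to -1.01, from -1.59 to -1.21 and from -1.73 to -1.48, and that of H19 from -1.002 to -0.664, from -1.31 to -1.01 and from -2.05 to -1.84, all called.

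Directions turned in changes that were not called, the cause not being tested. Scaling to the sum over genes not encoded by mitochondria gave SNRPN 0.13 at day 3 and PLAGL1 0.13 at day 7. Leaving out 1 library at a time gave these ranges. Between the genotypes, MEST ran from -0.16 to 0.16 at day 3, PLAGL1 from -0.12 to 0.014 at day 7, PEG10 from -0.29 to 0.46 and SNRPN from -0.25 to 0.064 at day 15. In the labelled knockout, MEST ran from -0.18 to 0.44 and GRB10 from -0.041 to 0.28 from day 3 to day 7, and GRB10 from -0.28 to 0.033 and PEG10 from -0.75 to 0.00078 from day 7 to day 15. The difference of the genotype effect between days 7 and 15 ran from -0.50 to 0.26 for PEG10 and from -0.068 to 0.87 for MEST.

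Fitting the compared groups alone, where fewer samples inform the spread, called 3657 genes between the genotypes at day 15 (5723 in the model of all libraries) and 2084 between days 7 and 15 in the labelled knockout (4628). Leaving out 1 library at a time, which also leaves fewer samples and assumes that a lone library varies like the other groups, gave these counts of genes. Between the genotypes they ran from 1990 to 2503 at day 3 (3849 with all), from 4498 to 5241 at day 7 (6852) and from 3803 to 5524 at day 15 (5723). In the labelled knockout they ran from 2947 to 3284 from day 3 to day 7 (4668) and from 2902 to 4897 from day 7 to day 15 (4628). The genotype effect changed between days 3 and 7 in 1920 to 2558 genes (3285), 1 to 3 of them imprinted genes of the set (2). Ranked by Spearman's rho, 1 of the 5 genes most like DLK1 was kept.

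The replicate numbers were not shown to pair the libraries: their deviations correlated at -0.121 to 0.206 over 15 pairs of groups. The 3 pairs within the labelled knockout were at 0.155, 0.103 and 0.206, a hint from the data and not from the design. With the replicate block, the calls between genotypes were 3859, 6914 and 5791 genes at days 3, 7 and 15, with 4, 6 and 5 of the imprinted genes. The block moved MEST past the threshold and SNRPN and PLAGL1 short of it in wild type from day 3 to day 7, and changed no other call of the 8 genes. Depth is an estimate here, so no limit of detection is given.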
